A study of Mus musculus with 29 samples.

Results

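The endoplasmic reticulum (ER) secretory genes are 48 named genes of protein targeting, translocation, folding, glycosylation, export and ER stress, taken from a table of 13982 genes. The rule used only the names, and no measured value, though the genes were chosen with earlier results of these data known. All 48 were in the table, and all passed the filter on low values, a mean value of at least 5.

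Poly(A) RNA was sequenced on an Ion Torrent PGM in 14 libraries of NZB/W mice, the (NZBxNZW)F1 cross of New Zealand black and New Zealand white mice, which develops lupus nephritis without further treatment. Proteinuric mice gave 4 libraries of kidney, 3 of tertiary lymphoid structures (TLS, immune aggregates dissected by hand under a loupe from the kidney) and 3 of renal lymph node. Kidney came from mouse 6 (39 weeks), mouse 20 (36 weeks) and 2 further mice aged 32 and 25 weeks. TLS came from mice 6 and 20 and the 25-week mouse, and lymph node from mice 6 and 20 and the 32-week mouse. Anti-dsDNA antibody-positive mice gave 3 lymph nodes (28, 29 and 18 weeks), and 1 lymph node came from a young mouse of 4 weeks. The miRNeasy kit was used for lymph nodes of antibody-positive mice and TRIzol for all other tissue, so in lymph nodes the kit and the disease state cannot be told apart. A TLS dissected by hand still holds renal tissue around it.

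Proteins that leave a cell, antibodies among them, enter the ER through the Sec61 channel while they are being made. Signal peptidase removes the leader peptide, the oligosaccharyl transferase complex attaches sugar chains, chaperones and disulfide isomerases fold the chain, and cargo receptors carry it to the Golgi. Chains that fail to fold are drawn back out and destroyed by ER-associated degradation (ERAD). A loaded ER raises this machinery through the unfolded protein response, in which IRE1, PERK and ATF6 act on the transcription factors XBP1, ATF4 and ATF6 itself. Plasma cells, which secrete antibody, depend on XBP1 for a large ER.

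Each library held between 343825 and 443379 reads. Values are reads plus 1 over the size factor of each library, and 3 reads were worth between 3.14 and 7.10. Of the 48 genes, 46 had at least 1 read in every library, and Ero1lb and Sec61g had none in 1 and 2 libraries. Ribosomal RNA genes held 59.6% of reads in the kidney of the 32-week mouse, 32.8% in lymph node from mouse 6, 24.6% in TLS from the 25-week mouse, and 7.58% or less in the other 11 libraries. The tissues carried their own markers. The thick ascending limb markers Umod, Slc12a1, Egf and Cldn16 and the collecting duct markers Aqp2, Aqp3, Scnn1g and Fxyd4 had no read in any lymph node library. The summed proximal tubule markers (reads divided by the size factor) ranged from 6036 to 17080 in kidney, from 949 to 6790 in TLS and from 4.05 to 9.47 in lymph nodes of proteinuric mice, so TLS libraries held renal RNA in differing amounts. In tissue RNA, fewer cells of a type and less RNA per cell cannot be told apart.

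Together the 48 genes took between 0.498% and 0.855% of the reads outside ribosomal RNA genes in kidney. In TLS they took 0.646% (95% Wilson interval 0.619% to 0.673%) in the 25-week mouse, 0.930% (0.899% to 0.961%) in mouse 20 and 1.10% (1.07% to 1.14%) in mouse 6. In lymph nodes of proteinuric mice the share was between 1.01% and 1.09%, in antibody-positive mice between 0.773% and 1.04%, and in the young mouse 1.12%. The intervals cover counting error only. TLS thus ran from within the range of kidney to the level of lymph node. In the same order of TLS libraries the 9 plasma cell markers had summed levels of 752, 1180 and 1509, against 16.2 to 71.7 in kidney and 1191 to 2694 in lymph nodes of proteinuric mice. Antibody constant regions summed to 8246, 12031 and 28235 in the same TLS libraries. In kidney the plasma cell markers Prdm1 and Tnfrsf17 had no read, and 7 of the 9 had at least 1. In the rest of this paragraph, lymph node means that of proteinuric mice unless another state is named. Summed B cell markers were 335, 357 and 495 in the same TLS libraries and 613 to 931 in lymph node. They were at most 23.6 in kidney, where Ms4a1, Pax5 and Blk had no read. T cell markers were 89.4, 97.5 and 158 in these TLS libraries, 273 to 301 in lymph node and at most 10.97 in kidney. Plasma, B and T cell markers thus all followed the order of the secretory share over the 3 TLS libraries, and proximal tubule markers ran in reverse, with 6790, 3797 and 949. The renal lists did not all do so. Collecting duct markers rose with the secretory share, with 63.2, 95.9 and 192, and thick ascending limb markers, with 1378, 597 and 728, followed neither order. Podocyte, macrophage, fibroblast, urothelial and adipocyte markers followed neither order as well. Macrophage markers summed to 382 to 934 in TLS, 662 to 1111 in lymph node and 79.9 to 372 in kidney. Fibroblast markers were 190 to 213 in TLS, 76.8 to 140 in lymph node and 10.7 to 165 in kidney. Urothelial markers were 133 to 746 in TLS, at most 22.0 in kidney and at 0 in lymph node of proteinuric mice. They were at most 4.59 in lymph node of antibody-positive mice and 0.89 in that of the young mouse. Adipocyte markers had no read in kidney and summed to 24.3 to 133 in lymph node. The part of these cells in the levels of the secretory genes was not tested.

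**Figure D1:**
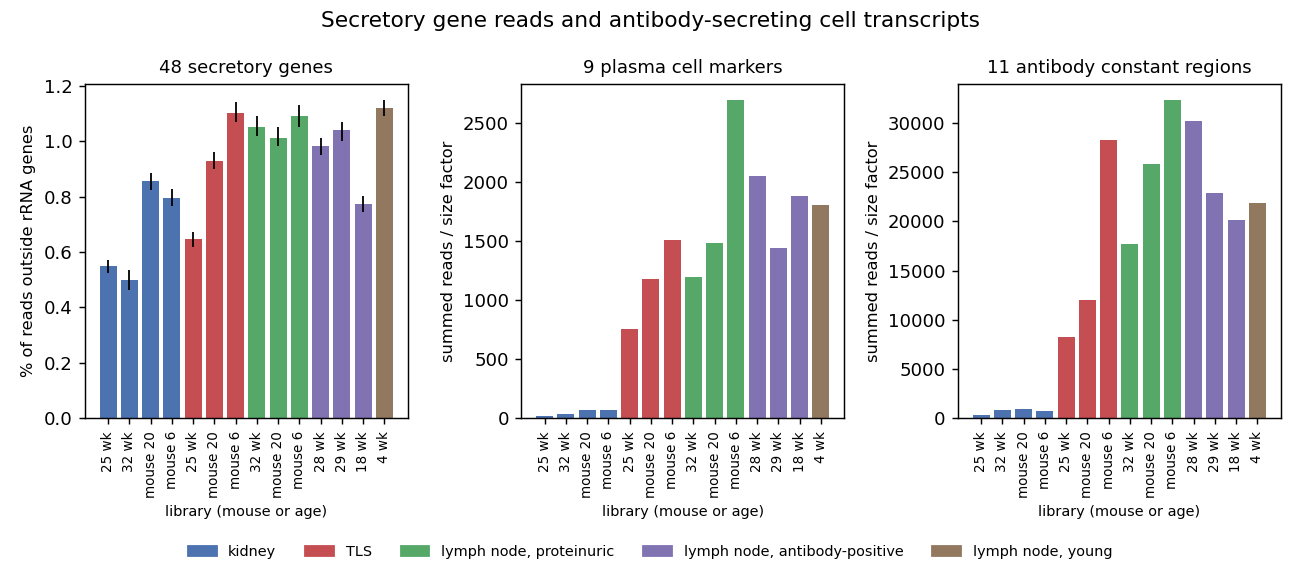
Bars give, for each of the 14 libraries, the percentage of reads outside ribosomal RNA genes that fell on the 48 secretory genes (left, with 95% Wilson intervals), the summed plasma cell markers (middle) and the summed antibody constant regions (right), the last 2 as reads divided by the size factor. The 4 kidney libraries have plasma cell sums of at most 71.7, and TLS of mouse 6, with 1.10% of its reads on secretory genes, stands above the other 2 TLS libraries in all 3 panels.

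In TLS compared with kidney, 5 of the 48 genes were higher (limma, adjusted p below 0.05 after Benjamini-Hochberg correction over 7382 genes) and 0 were lower. Genes past this threshold are called differentially expressed (DE). The 5 were Sec11c, Creld2, Edem1, Hsp90b1 and Ero1lb, a signal peptidase subunit, 2 chaperones, an ERAD lectin and an oxidase. This was 10.4% of the secretory genes, against 8.62% of all genes tested that were higher in TLS and 6.07% that were higher in kidney, so the share of DE genes was near that of all genes. The median log2 fold change of the 48 genes was 0.39, with 37 above 0, and that of all genes was -0.01. The libraries of TLS lay above all 4 of kidney for 11 secretory genes (22.9%), against 13.4% of all genes. The count of 5 rests on single libraries. Without TLS of mouse 6 it was 1, Sec11c, or 2.08%, and the genes higher in TLS over all those tested fell to 5.19%. It was 3 without TLS of mouse 20, and also 3 when kidney of the 32-week or of the 25-week mouse was left out. Each was 6.25% of the secretory genes, against 7.11%, 7.04% and 6.59% of all genes that were higher in TLS, in that order. Over all genes the split was 636 higher and 448 lower in TLS, 626 and 238 by edgeR with DESeq2 size factors, and 661 and 169 by edgeR with TMM scaling.

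In lymph node compared with kidney of proteinuric mice, 16 of the 48 genes were higher and 0 were lower. This was 33.3% of the secretory genes, against 20.8% of all genes tested that were higher in lymph node and 23% that were higher in kidney. The largest differences were those of Creld2, Sdf2l1 and Sec11c, with means 7.55, 6.05 and 5.74 times those of kidney. The median log2 fold change was 0.69, with 43 of 48 above 0, and that of all genes was 0.05. All 3 lymph nodes lay above all 4 kidneys for 17 genes (35.4%), against 23.3% of all genes. Without the 3 libraries with over 20% ribosomal RNA reads, a choice made after seeing the data, the count was 9, or 19.1% of the 47 secretory genes then tested, against 18.8% of all genes, so the share was near that of all genes. Dnajb11, Manf, Pdia6, Sel1l, Sec61b, Spcs2 and Krtcap2 were no longer DE.

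**Figure D2:**
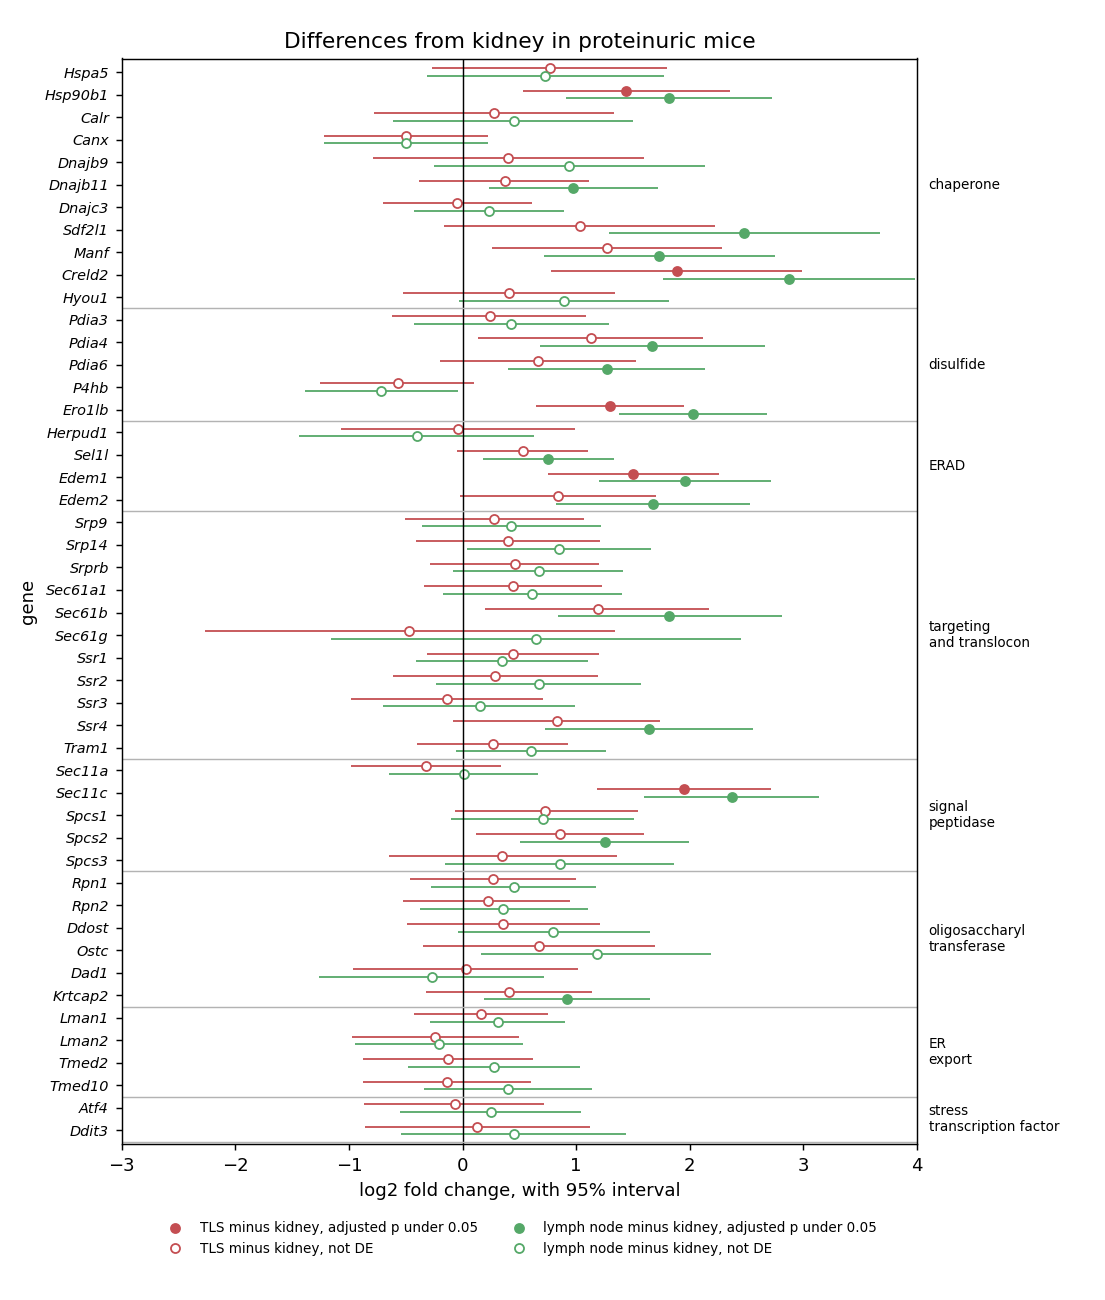
Points give the log2 fold change of each of the 48 genes (grouped by role) against kidney, red for TLS and green for lymph node of proteinuric mice, with 95% intervals from limma, filled where the adjusted p was under 0.05. Filled points are all right of 0, 5 in red and 16 in green, and P4hb, Canx, Herpud1 and Lman2 have both points left of 0.

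From here on, values are given in a fixed order, which for kidney is mouse 6, mouse 20, the 32-week and the 25-week mouse. For TLS it is mouse 6, mouse 20 and the 25-week mouse, and for lymph node mouse 6, mouse 20 and the 32-week mouse.

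Of the 11 chaperones and their helpers, 2 were DE in TLS and 5 in lymph node, all above kidney. Creld2, a secreted ER-resident protein with EGF-like repeats that responds to ER stress (chromosome 15, 88819646 to 88826683 in GRCm38), had values of 30.9, 57.4, 23.1 and 25.5 in kidney, 261, 86.5 and 78.5 in TLS, and 306, 332 and 137 in lymph node. TLS of mouse 6 lay within the range of the lymph nodes, while the other 2 TLS libraries lay between the highest kidney and the lowest lymph node. The log2 fold change was 1.89 (SE 0.51, adjusted p = 0.0257) in TLS and 2.87 (SE 0.51, adjusted p = 0.000583) in lymph node. Without TLS of mouse 6 the fold change in TLS was 1.34 (adjusted p = 0.132), and within the 3 mice with both tissues it was 3.04 in mouse 6, 0.58 in mouse 20 and 1.59 in the 25-week mouse.

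Hsp90b1, the ER form of the Hsp90 chaperone (chromosome 10, 86690209 to 86705509), had values of 137, 162, 51.5 and 98.5 in kidney, 340.0, 291 and 226 in TLS, and 394, 371 and 333 in lymph node. The 3 tissues formed a ladder in which kidney did not overlap with either of the others, and TLS of mouse 6 overlapped with lymph node of the 32-week mouse. It differed from kidney by 1.44 (SE 0.42, adjusted p = 0.0355) in TLS and by 1.82 (SE 0.42, adjusted p = 0.00352) in lymph node. With the mouse as a replicate block, which pairs the tissues of one animal, the difference in TLS was 1.26 and no longer passed the test (adjusted p = 0.0609).

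Hspa5, or BiP, is the main ER chaperone and the usual read-out of ER stress (chromosome 2, 34771970 to 34777547). Its values were 177, 218, 47.9 and 143 in kidney, 262, 221 and 178 in TLS, and 216, 226 and 195 in lymph node. Kidney of the 32-week mouse stood far below all other libraries, and the other 3 kidneys overlapped with or lay just below TLS and lymph node. That library had the lowest value of its tissue for 28 of the 48 genes and 59.6% ribosomal RNA reads, and the part of this in the results was not tested. For Hspa5 the log2 fold change of 0.77 in TLS (95% interval -0.27 to 1.80) and of 0.73 in lymph node (-0.31 to 1.77) did not pass the test (adjusted p = 0.323 and 0.239). Calr, the calcium-binding lectin chaperone calreticulin, was alike in this, with 339, 333, 85.2 and 269 in kidney, 366, 255 and 219 in TLS, and from 294 to 331 in lymph node. Its fold changes of 0.28 in TLS and 0.45 in lymph node turned to -0.19 and -0.02 without kidney of the 32-week mouse.

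Sdf2l1, a partner of BiP in the ER, had values of 22.1, 27.0, 19.5 and 16.2 in kidney, 120.4, 41.7 and 16.4 in TLS, and 187, 116 and 81.7 in lymph node. Every lymph node lay above every kidney, whereas TLS ran from the level of kidney in the 25-week mouse to that of lymph node in mouse 6. The log2 fold change was 2.48 in lymph node (SE 0.55, adjusted p = 0.00269) and 1.03 in TLS (95% interval -0.16 to 2.22, adjusted p = 0.238). Manf, a secreted ER stress protein, had 17.7, 48.9, 12.4 and 18.5 in kidney, 80.6, 48.7 and 37.1 in TLS, and 103, 77.7 and 48.6 in lymph node. Kidney of mouse 20 reached the lowest lymph node and TLS libraries. Manf was higher by 1.73 in lymph node (SE 0.47, adjusted p = 0.00931), and its 1.27 in TLS did not pass the test (adjusted p = 0.0923). Dnajb9, a co-chaperone of BiP, had 29.2, 28.7, 8.88 and 9.27 in kidney, 15.3, 36.9 and 18.5 in TLS, and 69.6, 22.7 and 21.0 in lymph node, with all 3 tissues overlapping. Dnajb11, another co-chaperone, was higher in lymph node by 0.97 (adjusted p = 0.0361). Canx, Dnajc3 and Hyou1 did not pass the test in either comparison, and Canx, the membrane lectin calnexin, had a log2 fold change of -0.50 in both.

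Among the 5 disulfide enzymes, 1 was higher in TLS and 3 in lymph node. Pdia4, a disulfide isomerase, had values of 65.4, 57.4, 23.1 and 67.2 in kidney, 196, 92.7 and 70.9 in TLS, and 179.7, 160.1 and 140.0 in lymph node. All TLS and lymph node libraries lay above all kidneys, but TLS of the 25-week mouse did so only narrowly. The log2 fold change was 1.67 in lymph node (SE 0.46, adjusted p = 0.0101) and 1.13 in TLS (adjusted p = 0.122). Pdia6 was higher in lymph node by 1.27 (adjusted p = 0.0216), and Pdia3 did not pass the test. P4hb, the disulfide isomerase that is also a subunit of collagen prolyl hydroxylase, went the other way, with 202, 158, 185 and 209 in kidney, 147, 112 and 121 in TLS, and 128, 109.9 and 104 in lymph node. All 4 kidneys lay above all TLS and lymph node libraries, and the log2 fold changes of -0.57 and -0.72 did not pass the test (adjusted p = 0.250 and 0.0796). P4hb was lower in lymph node by DESeq2 (-0.75, adjusted p = 0.0296) and by limma with all 7 lymph nodes as one group (-0.82, adjusted p = 0.0034). It was DE only in these 2 of the 22 alternatives tried for lymph node.

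Ero1lb, the ER oxidase that recharges the isomerases (chromosome 13, 12565874 to 12611396), had the fewest reads of the DE genes. It had 7 reads in the 4 kidneys together, 25 in TLS and 38 in lymph node. Its values were 3.54, 3.37, 1.77 and 2.32 in kidney, 8.48, 9.43 and 6.54 in TLS, and 17.4, 11.4 and 13.8 in lymph node, and the 3 tissues did not overlap. No kidney had more than 3 reads, so the ratio is given from the reads divided by the size factors, as 3.97 for TLS (95% interval 1.67 to 10.9) and 6.82 for lymph node (3.01 to 18.1), counting error only. On the log2 scale the test gave 1.30 (SE 0.30, adjusted p = 0.0116) and 2.03 (SE 0.30, adjusted p = 0.000148).

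Of the 4 ERAD genes, 1 was higher in TLS and 3 in lymph node. Edem1, a lectin that takes misfolded glycoproteins out of the folding cycle (chromosome 6, 108828641 to 108859356), had values of 12.4, 10.97, 7.10 and 12.8 in kidney, 51.7, 28.3 and 21.8 in TLS, and 43.5, 37.0 and 52.6 in lymph node. The kidneys did not overlap with the others, and TLS of mouse 6 reached the lymph nodes. Edem1 was higher by 1.504 in TLS (SE 0.35, adjusted p = 0.0121) and by 1.96 in lymph node (SE 0.35, adjusted p = 0.000593). Edem2, which acts in the same step, was higher by 1.68 in lymph node (adjusted p = 0.00413), and TLS spanned 10.9 to 44.9. Sel1l, the scaffold of the Hrd1 ubiquitin ligase, had 14.2, 12.7, 8.88 and 12.8 in kidney, 19.5, 17.3 and 16.4 in TLS, and 21.7, 18.9 and 21.9 in lymph node. These are small differences with little spread, and the fold change was 0.53 in TLS (adjusted p = 0.210) and 0.75 in lymph node (adjusted p = 0.0361). Herpud1, a membrane protein of the same complex, had 104, 75.1, 44.4 and 204 in kidney, 95.8, 62.9 and 118 in TLS, and 86.9, 69.2 and 55.03 in lymph node. The mouse aged 25 weeks had the highest Herpud1 in both kidney and TLS, and neither comparison passed the test.

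Of the 11 targeting and translocon genes, 0 were DE in TLS and 2 in lymph node. Sec61b, the beta subunit of the Sec61 channel, had values of 52.2, 65.8, 28.4 and 38.2 in kidney, 114, 122 and 75.2 in TLS, and 319, 128 and 96.3 in lymph node. Ssr4, a subunit of the translocon-associated TRAP complex, had 20.3, 29.5, 21.3 and 20.9 in kidney, 54.3, 40.9 and 31.6 in TLS, and 149, 67.3 and 38.9 in lymph node. Both genes had all TLS and lymph node libraries above all kidneys, and in both lymph node of mouse 6 stood far above the next library of its tissue. They were higher in lymph node by 1.82 (SE 0.45, adjusted p = 0.00585) and 1.64 (SE 0.42, adjusted p = 0.00677). In TLS the differences of 1.19 and 0.83 did not pass the test (adjusted p = 0.105 and 0.212). Lymph node of mouse 6 had the highest value of its tissue for 33 of the 48 genes, and Sec61g, with 37.7 against 6.63 and 0.81 in the other 2, stood out most. This library, with 32.8% ribosomal RNA reads, was above the other 2 by a median log2 difference of 0.98 over the 766 genes with merged exons of up to 1000 bases and below them by -0.57 over the 761 genes with more than 8000 bases. Its part in the result was not tested. Without it, Sec61b, Ssr4 and 10 further secretory genes, 12 in all, were DE in lymph node. The other 9 genes, Srp9, Srp14, Srprb, Sec61a1, Sec61g, Ssr1, Ssr2, Ssr3 and Tram1, did not pass the test in either comparison, and their fold changes in lymph node ranged from 0.15 to 0.85.

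Of the 5 signal peptidase subunits, 1 was DE in TLS and 2 in lymph node. The enzyme has alternative catalytic subunits, Sec11a and Sec11c. Sec11c had values of 8.84, 12.7, 7.10 and 6.95 in kidney, 49.2, 26.7 and 36.0 in TLS, and 63.8, 57.8 and 31.6 in lymph node. Every TLS and lymph node library was above every kidney, and TLS and lymph node overlapped. Sec11c was higher by 1.95 in TLS (SE 0.35, adjusted p = 0.00301) and by 2.37 in lymph node (SE 0.35, adjusted p = 0.000157), and it stayed DE in all 21 alternatives tried for TLS and all 22 for lymph node. Sec11a had 8.84, 16.9, 8.88 and 10.4 in kidney, 9.33, 8.64 and 7.63 in TLS, and 13.04, 12.3 and 8.09 in lymph node. Its fold changes were -0.32 in TLS (95% interval -0.98 to 0.34) and 0.01 in lymph node (-0.65 to 0.66), so the intervals of the catalytic subunits did not overlap in either comparison. Spcs2, an accessory subunit, was higher in lymph node by 1.25 (adjusted p = 0.0100), and Spcs1 and Spcs3 were not DE.

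Of the 6 subunits of oligosaccharyl transferase, 0 were DE in TLS and 1 in lymph node. Rpn2, a core subunit also called ribophorin II, had values from 23.1 to 50.4 in kidney, 56.8, 38.5 and 39.2 in TLS, and 58.0, 41.7 and 48.6 in lymph node. The tissues overlapped, and the fold changes were 0.22 in TLS (95% interval -0.52 to 0.95) and 0.36 in lymph node (-0.37 to 1.10). Krtcap2, a small accessory subunit, was higher in lymph node by 0.92 (SE 0.34, adjusted p = 0.0426). Rpn1, Ddost, Ostc and Dad1 did not pass the test, and Ostc, at 209 in lymph node of mouse 6, had a fold change of 1.18 (adjusted p = 0.0590).

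The 4 ER export genes were not DE. Lman1, the cargo lectin ERGIC-53, had values of 15.03, 12.7, 12.4 and 17.4 in kidney, 19.5, 14.9 and 14.2 in TLS, and 21.7, 16.1 and 16.2 in lymph node, and the tissues overlapped. Its fold changes were 0.16 in TLS (95% interval -0.43 to 0.75) and 0.31 in lymph node (-0.29 to 0.90). Those of Lman2, Tmed2 and Tmed10 were between -0.24 and -0.13 in TLS and between -0.21 and 0.40 in lymph node. The median fold change of the group was -0.14 in TLS and 0.30 in lymph node.

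The 2 stress transcription factors were not DE either. Atf4, which PERK signaling raises at translation, had values of 105, 102, 58.6 and 58.0 in kidney, 82.2, 81.7 and 60.0 in TLS, and 85.5, 128 and 72.03 in lymph node. Ddit3, or CHOP, the factor of prolonged ER stress, had 11.5, 14.3, 3.55 and 9.27 in kidney, 13.6, 11.8 and 5.45 in TLS, and 8.69, 19.9 and 10.52 in lymph node. The 3 tissues overlapped for both genes. The fold changes in TLS were -0.07 for Atf4 (95% interval -0.87 to 0.72) and 0.13 for Ddit3 (-0.86 to 1.12), and in lymph node 0.25 (-0.55 to 1.04) and 0.45 (-0.54 to 1.44).

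**Figure D3:**
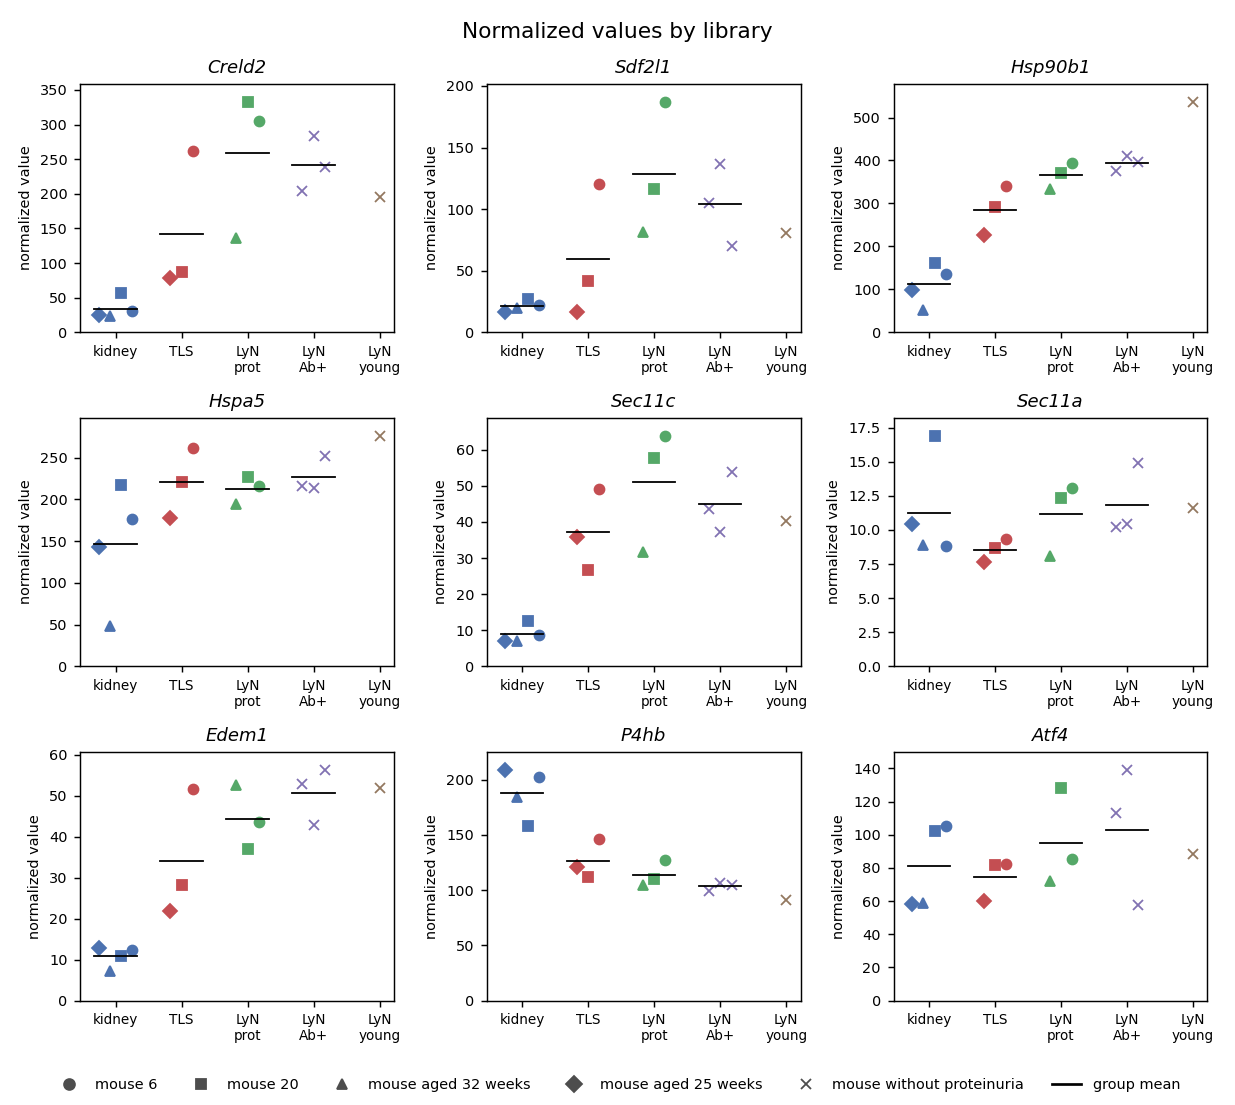
Points give the normalized value (reads plus 1, divided by the size factor) of 9 secretory genes in each library, by tissue and state (LyN, lymph node; prot, proteinuric; Ab+, antibody-positive), with a symbol for each proteinuric mouse and a line at the group mean. Kidney does not overlap with TLS for Creld2, Hsp90b1, Sec11c and Edem1, it lies above TLS for P4hb, and it overlaps with TLS for Sdf2l1, Hspa5, Sec11a and Atf4.

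Between TLS and lymph node of proteinuric mice, 0 of the 48 genes were DE by limma, against 10.6% of all genes, and 0 by edgeR or DESeq2. At an unadjusted p under 0.05 there were 2, Sdf2l1 (log2 fold change -1.45, 95% interval -2.72 to -0.18, adjusted p = 0.155) and Ero1lb (-0.72, -1.42 to -0.03, adjusted p = 0.199). The median fold change was -0.38, with 6 of 48 above 0, and that of all genes was -0.04. With TMM scaling in edgeR the median of all genes was 0.14, and all DE genes split into 747 higher and 38 lower in TLS, against 655 and 125 by limma and 660 and 68 by edgeR with DESeq2 size factors. The standard error had a median of 0.40, and intervals of single genes reached from -3.04 to 1.47, so the data do not show that the tissues were alike. Without TLS of mouse 6, Sdf2l1 and Edem2 were lower in TLS than in lymph node. These 2 were 4.17% of the secretory genes, against 3.33% of all genes that were lower in TLS and 9.88% that were higher. Mice 6 and 20 gave both tissues. In mouse 6, Creld2 and Sdf2l1 were lower in TLS by 0.23 and 0.63 on the log2 scale, and in mouse 20 by 1.93 and 1.46. Both comparisons with kidney share the kidney libraries, and all 3 comparisons share libraries in pairs.

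**Figure D4:**
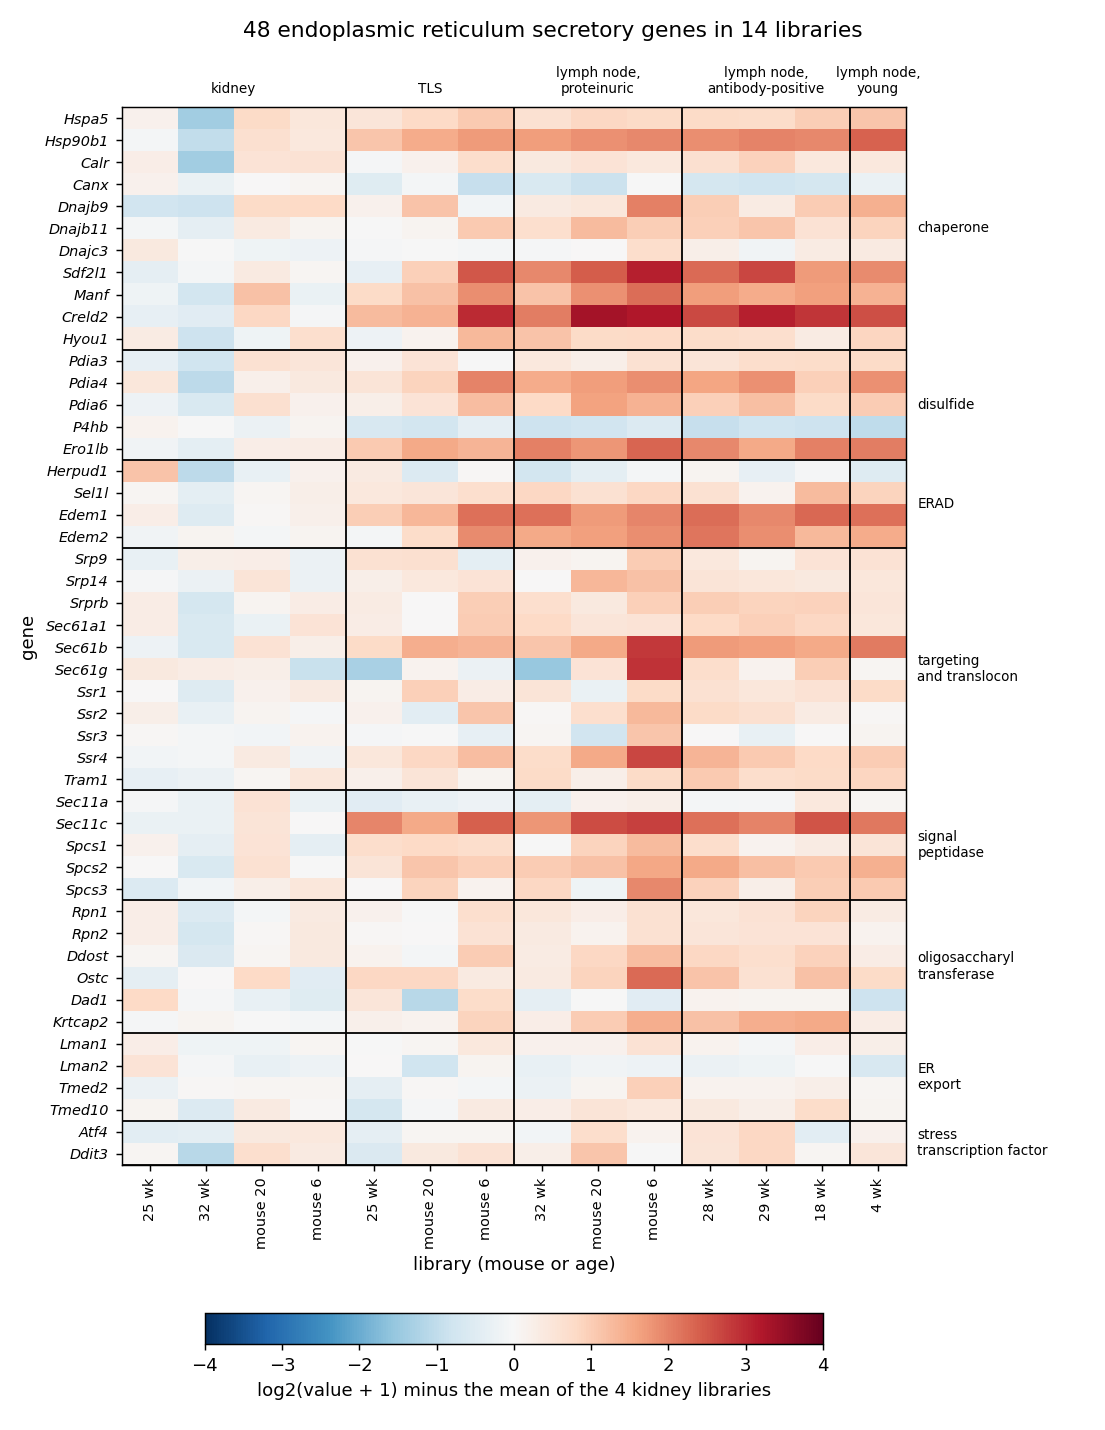
Each cell is the log2(value + 1) of one of the 48 genes (rows, by role) in one of the 14 libraries (columns, by tissue and state), minus the mean of that gene over the 4 kidney libraries, so red is above kidney and blue below. Creld2, Sdf2l1, Sec11c, Edem1 and Ero1lb are red in all 7 lymph node libraries, TLS of mouse 6 is the reddest TLS library, and P4hb is blue in all TLS and lymph node libraries.

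Within lymph nodes, 0 of the 48 genes differed between proteinuric and antibody-positive mice, as did 0% of the 6810 genes tested (limma, a fit of these 6 libraries), and 0 secretory genes were DE by edgeR or DESeq2. At an unadjusted p under 0.05 there were 0 secretory genes, against 215 of all genes, and DESeq2 called 13 genes in all. Fold changes of the secretory genes ran from -0.47 in Krtcap2 to 0.57 in Ssr4, with a median of 0.06, and their standard error had a median of 0.34. Creld2 had values of 205, 284 and 239 in antibody-positive mice and 196 in the young mouse, inside the 137 to 332 of proteinuric mice. The interval of its difference, -1.03 to 1.03, leaves room for a change of about 2-fold either way. Sdf2l1 had 105, 137 and 70.0 in antibody-positive and 80.5 in the young mouse, and Hspa5 had 216, 213 and 252, and 276. Creld2 of the young mouse lay inside the range of diseased mice, its Hspa5 lay above it, and its Sdf2l1 was near the lower end.

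The other genes named by the fixed rule are given for antibody-positive mice (28, 29 and 18 weeks) and then for the young mouse. Calr was 353, 427 and 303, and 305, Pdia4 was 150.1, 176 and 95.2, and 176, and Manf was 69.5, 61.8 and 68.8, and 57.3. Dnajb9 was 33.4, 20.9 and 34.4, and 45.6, and Herpud1 was 98.2, 72.3 and 88.3, and 63.5. None of these folding and degradation genes separated the states. Sel1l was 18.5, 13.3 and 29.8, and 23.3, Ssr4 was 60.2, 48.5 and 40.1, and 47.4, and Sec61b was 145, 138 and 128, and 187. Sec11c was 43.6, 37.1 and 53.9, and 40.3, Ero1lb was 12.98, 9.51 and 13.8, and 14.3, and Edem1 was 52.8, 42.8 and 56.2, and 51.9. For Sec11c, Ero1lb and Edem1 all 7 lymph nodes lay above all 4 kidneys. The same held for Creld2, Sdf2l1, Hsp90b1, Pdia4, Sec61b and Ssr4. With the lymph nodes of proteinuric mice alone, 35.4% of the secretory genes and 23.3% of all genes lay above all kidneys. Rpn2 was 52.8, 55.2 and 56.2, and 42.1, and Lman1 ran from 13.3 to 17.2, with the young mouse inside that range. Atf4 was 113, 139 and 57.4, and 88.6, and Ddit3 was 12.98, 16.2 and 9.18, and 12.5. Both stress factors overlapped between states. Hsp90b1 was 374, 411 and 397 in antibody-positive mice and 536 in the young mouse, the highest of the 14 libraries. There is 1 young library, so this has no test.

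Per kilobase of merged exon, the secretory genes were ranked by their mean value in each tissue. In kidney, Calr (89.0 per kb, SD 41.1, n = 4) and P4hb (65.8, SD 7.97) led, followed by Herpud1 (45.8, SD 29.7), and the libraries of these neighbours overlapped. In TLS the leaders were Creld2 (104 per kb, SD 75.6, n = 3) and Calr (97.2, SD 26.7), and in lymph node of proteinuric mice Creld2 (189, SD 77.7, n = 3) and Sec61b (142, SD 94.7), again with overlapping libraries. The place of Creld2 in TLS rests on mouse 6, with 191 per kb there and 63.3 and 57.5 in the other TLS libraries. Without mouse 6 its mean was 60.4, and Calr (82.3), Sec61b (77.5) and Hsp90b1 (64.0) lay above it. Ssr1 and Ero1lb were among the last 3 in all 3 tissues. The length used counts every annotated exon, 10431 bases for Ssr1 and 6653 for Ero1lb, and its part in the order was not tested.

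A wider list held 113 other genes of the pathway, of which 110 were in the table and 94 were tested. In TLS compared with kidney 3 were higher and 2 lower, and in lymph node 12 were higher and 8 lower, with medians of 0.11 and 0.15. In TLS this was 3.19% higher and 2.13% lower, against 8.62% and 6.07% of all genes, and in lymph node 12.8% and 8.51%, against 20.8% and 23%. The count of 5 in TLS ran from 1 to 7 when libraries were left out one at a time. With the mouse as a block it was 2, both higher, and Xbp1 (adjusted p = 0.0582), Mlec and Mcfd2 were no longer DE. Xbp1, the transcription factor that IRE1 activates by splicing, had values of 79.6, 54.0, 21.3 and 34.8 in kidney, 143, 116 and 91.6 in TLS, and 129, 134 and 141 in lymph node, and no kidney overlapped with the others. It was higher by 1.42 in TLS (SE 0.42, adjusted p = 0.0401) and by 1.64 in lymph node (SE 0.42, adjusted p = 0.00714). The reads are counted per gene, so spliced and unspliced Xbp1 cannot be told apart. The sensors Eif2ak3 (PERK) and Atf6 did not pass the test, with fold changes of -0.29 and 0.17 in TLS and -0.35 and 0.50 in lymph node. Ern1 (IRE1) and Trib3, a target of CHOP, were below the filter, with at most 7 and 5 reads in any library.

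Derl3, an ERAD channel protein, had the largest difference of that list. It had 5 reads in the 4 kidneys together, 89 in TLS and 130 in lymph node, and values of 56.0, 14.2 and 8.72 in TLS and 53.6, 49.3 and 35.6 in lymph node. The ratio of reads to kidney was 19.8 in TLS (95% counting interval 8.17 to 62.4) and 32.6 in lymph node (13.6 to 102). Without TLS of mouse 6 it was 8.21 in TLS (3.07 to 27.5). The test gave log2 fold changes of 2.70 (adjusted p = 0.00385) and 3.89 (adjusted p = 5.84e-05). Fkbp11, a prolyl isomerase of the ER, was higher by 2.29 in lymph node (adjusted p = 0.00371), and its 1.10 in TLS did not pass the test. On the lower side, Mlec, the lectin malectin, had log2 fold changes of -1.18 in TLS (adjusted p = 0.0305) and -1.52 in lymph node (adjusted p = 0.00245). Mcfd2, the partner of Lman1 in ER export, had -1.11 (adjusted p = 0.0395) and -1.70 (adjusted p = 0.00111). In TLS neither was DE with the mouse as a block (adjusted p = 0.0581 for Mlec and 0.0601 for Mcfd2) or without TLS of mouse 6 (adjusted p = 0.0887 and 0.135). Sesn2, a target of ATF4, was lower in lymph node with -2.01 (adjusted p = 0.00258). It had 5 reads in the lymph nodes together and 53 in the kidneys, a ratio of 0.118 (95% counting interval 0.0369 to 0.294). Ube2j1, an ERAD ubiquitin-conjugating enzyme named after its values were seen, was the third gene higher in TLS. By edgeR with TMM scaling 3 genes of the list were higher in TLS and 0 lower, and with DESeq2 size factors 2 and 0.

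The motifs through which ER stress acts were searched on both strands of the 300 bases around each start (250 before and 50 after, RefSeq, GRCm38.p6). Sequences were found for 38 of the 48 genes. The ER stress element ERSE, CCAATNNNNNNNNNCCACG, to which ATF6 and XBP1 are known to bind with NF-Y, was in 8 of the 38 (Hspa5, Hsp90b1, Calr, Canx, Dnajc3, Creld2, Pdia6 and Ero1lb), or 21.1%, against 0.137% of all 27025 genes with a promoter sequence. ERSE-II, ATTGGNCCACG, was in 3 (Dnajb11, Herpud1 and Krtcap2), or 7.89%, against 0.0444%. The 48 genes were chosen for roles in the ER, ER stress among them. The higher shares of ERSE and ERSE-II are therefore no result of these data. The letters TGACGTGG of the XBP1 element UPRE were in 0 of the 38 and 0.714% of all genes, and the ATF4 element TTGCATCA was in 1, Herpud1, and 1.03% of all. The motifs can overlap one another. The stretches below show the motifs, in capitals, with the bases around them, 5′ to 3′ on the strand of the gene. Creld2, Hsp90b1 and Ero1lb were DE in both comparisons with kidney, Hspa5 was not in either, and Herpud1 holds both ERSE-II and the ATF4 element.
Creld2, chr15:88819481-88819577, plus strand: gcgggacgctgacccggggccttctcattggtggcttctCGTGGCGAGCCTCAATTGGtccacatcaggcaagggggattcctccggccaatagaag
Hsp90b1, chr10:86705494-86705694, minus strand: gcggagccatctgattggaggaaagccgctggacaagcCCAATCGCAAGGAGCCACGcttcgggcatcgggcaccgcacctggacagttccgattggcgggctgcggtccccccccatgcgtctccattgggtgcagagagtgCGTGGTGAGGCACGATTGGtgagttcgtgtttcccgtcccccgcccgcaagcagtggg
Ero1lb, chr13:12565643-12565739, plus strand: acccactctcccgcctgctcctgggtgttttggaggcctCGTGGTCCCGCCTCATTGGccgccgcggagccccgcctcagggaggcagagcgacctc
Hspa5, chr2:34771986-34772082, plus strand: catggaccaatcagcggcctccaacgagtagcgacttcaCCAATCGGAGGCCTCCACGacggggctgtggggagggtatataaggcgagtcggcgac
Herpud1, chr8:94386278-94386426, plus strand: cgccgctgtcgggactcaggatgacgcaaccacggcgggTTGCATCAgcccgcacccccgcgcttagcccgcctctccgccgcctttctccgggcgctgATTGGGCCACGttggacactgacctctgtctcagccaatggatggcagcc

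Set beside the levels, 3 of the 8 genes with ERSE were DE in TLS and 4 in lymph node, with median log2 fold changes of 0.72 and 1.00. Of the 3 genes with ERSE-II, 0 were DE in TLS and 2 in lymph node, with medians of 0.37 and 0.92. With either element, 3 of 11 genes were DE in TLS and 6 in lymph node, with medians of 0.41 and 0.92. Among the 27 genes with a promoter sequence and neither ERSE nor ERSE-II, 1 was DE in TLS (Edem1) and 8 in lymph node, with medians of 0.36 and 0.65. Both groups therefore held genes that changed and genes that did not. For all genes tested, the share DE above kidney was 8.62% for TLS and 20.8% for lymph node. The counts for TLS rest on mouse 6. With its TLS left out, Sec11c alone of the 48 genes stayed DE, so no gene with a promoter sequence did, with or without these elements. Sec11c and Manf had no sequence in the table used. A match is a description of letters, and these counts have no test.

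Several secretory genes share sequence with other genes, between which the counting could split reads. For Rpn2 the matches were to stretches of at most 191 bases in 17 other genes. Transcripts of at least 95% identity were found for Sec61g, Srp9, Tmed2 and Rpn2 in genes that are themselves rows of the table, and for Sec61b, Spcs2, Ero1lb, Tmed10, Ssr2 and Dnajb9 in genes that are not, so these values are uncertain to that extent. Exons of Spcs1 and Glt8d1 overlap over 16.3% of Spcs1, those of Krtcap2 and Trim46 over 15.7% of Krtcap2, and those of Srprb and Gm20425 over 20.7% of Srprb.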

How the data were processed

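Poly(A) RNA of 14 libraries was sequenced on an Ion Torrent PGM, and the authors mapped reads to GRCm38 and counted them by gene with default settings of CLC Genomics Workbench, per the paper's methods. The deposited signal equals (reads + 1) over a DESeq size factor, since 100% of values gave whole reads (tolerance 1e-06). The submitters' processing notes also name mm9 and BWA, which the paper's methods give for the whole-kidney libraries, not analysed here. Groups follow the labels.

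The 10 libraries of proteinuric mice entered one limma 3.58.1 fit (R 4.3.3, trend and robust moderation) on log2(value + 1), limited to 7382 genes whose values averaged 5 or more, and the 6 lymph nodes of diseased mice another (6810 genes). Fold changes on this scale understate changes of low genes. DE means an adjusted p (Benjamini-Hochberg, all genes tested) below 0.05. Alternatives were edgeR 4.0.16 and DESeq2 1.42.0 on the recovered reads, other scalings, pseudocounts and filters, a replicate block, and leaving out libraries. The p-values measure the spread between libraries of a tissue or state, each from a different mouse. Except with the replicate block, libraries of one mouse from different tissues were taken as independent. TLS and kidney of one mouse came from the same kidney: deviations from the tissue means correlated at 0.351 to 0.454 in these 3 pairs. Same-mouse pairs with lymph node ran from -0.335 to 0.202, and the median over all 8 same-mouse pairs was 0.114. The 25 pairs of different mice ran from -0.498 to 0.512, with a median of 0.0353. The mouse numbers in the labels pair the samples.

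The members, lists and tests were chosen with earlier results of these data known. Named with every value were 18 fixed genes, such as Hspa5 and Ero1lb, and the 3 DE members with the largest fold changes per comparison and direction. P4hb, Sec11a and Ube2j1 were added after their values were seen. Positions and merged exon lengths are from GENCODE M21, promoters from RefSeq. The tests were tried on simulated data.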

Additional observations from a re-analysis of the deposited data

Results flagged for a closer look

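In the 4 kidney libraries, single values stood apart from the other 3 by Dixon's ratio for 3 of the 49 quantities examined (the 48 genes and their share of reads). About 1 in 20 such groups does so by chance. Manf was 48.9 in kidney of mouse 20, against 12.4 to 18.5 in the others, and Ssr4 was 29.5 in the same library, against 20.3 to 21.3. Tmed2, a cargo receptor of the export vesicles, was 64.9 in kidney of the 25-week mouse, against 79.9 to 81.3.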

How the results depend on the processing

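Of the 399 fold changes against kidney recomputed for 19 genes in TLS, 363 kept their direction and their side of the threshold, as did 483 of 528 for 24 genes in lymph node. Leaving out each library gave 1 to 7 DE secretory genes in TLS versus kidney, 12 to 18 in lymph node versus kidney and 0 to 2 in TLS versus lymph node. In TLS versus kidney the 1 was 2.08% of the secretory genes, against 5.19% of all genes that were higher. The 7 were 14.6%, against 9.63%. In lymph node versus kidney the 12 were 25% to 25.5%, against 18.1% to 19.4%, and the 18 were 37.5%, against 16.5%. In TLS versus kidney the count was 3 with only the 2 tissues compared and 3 without the 3 libraries with over 20% ribosomal RNA reads. Either was 6.38% of the secretory genes tested, against 6.4% and 8.07% of all genes that were higher in TLS. In lymph node versus kidney the count was 9 without those 3 libraries (19.1%, against 18.8% of all genes). It was 26 with all 7 lymph node libraries as one group. Of the 26, 24 were higher (50% of the genes, against 30.1% of all genes) and 2, Canx and P4hb, lower. With the mouse as a replicate block the counts were 4, 13 and 0, where the pairing lost Hsp90b1 in TLS and Dnajb11, Sel1l and Krtcap2 in lymph node, and it changed no other call of a secretory gene. The 4 in TLS were 8.33% of the secretory genes, against 8.51% of all genes that were higher. The 13 in lymph node were 27.1%, against 19.2%. In the wider list the block took the counts against kidney from 5 to 2 in TLS and from 20 to 17 in lymph node. The cause was not tested. Fold changes in TLS that changed sign were those of genes that were not DE. Calr ranged from -0.19 to 0.47 when libraries were left out one at a time and was -0.03 without the 3 libraries, Herpud1 ranged from -0.39 to 0.34 and was 0.01 with size factors that leave out ribosomal RNA and antigen receptor genes, Rpn2 ranged from -0.01 to 0.35, Atf4 from -0.21 to 0.08, and Ddit3 from -0.24 to 0.49, with -0.08 under the block. In lymph node Calr ranged from -0.02 to 0.64 and was 0.00 without the 3 libraries. The count tests on the recovered reads called 830 (edgeR, TMM) and 978 (DESeq2) genes in TLS versus kidney. In TLS versus kidney the median of all genes was 0.11 with TMM, and the split was 661 higher and 169 lower, against 626 and 238 by edgeR with DESeq2 size factors and 636 and 448 by limma. With a median of 12 reads per secretory gene in kidney of the 32-week mouse and 60.5 in TLS of mouse 6, depth limits genes such as Sec61g and Ero1lb.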
